A study of Mus musculus with 118 samples.

Results

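Cyclin-dependent kinase (CDK) inhibitors are small proteins that restrain the kinases driving the cell cycle. The 6 genes described here, Cdkn2a, Cdkn2b, Cdkn2c, Cdkn2d, Cdkn1a and Cdkn1b, were taken by name out of 26180 mouse genes with a curated RefSeq transcript. All 6 had a RING1B peak at a promoter in untreated mouse embryonic stem cells (ESCs), against 53.2% of all genes. These peaks ranged from 1567 bp at Cdkn2d to 42341 bp over Cdkn2a and Cdkn2b. SUZ12 was listed at 5 of the 6 genes, against 24.8% of all genes, and PCGF2 at 3 of 6, against 13.5%.

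The INK4 proteins, p16INK4a (Cdkn2a), p15INK4b (Cdkn2b), p18INK4c (Cdkn2c) and p19INK4d (Cdkn2d), bind CDK4 and CDK6 and block their activation by D-type cyclins, which keeps RB proteins active and E2F-driven genes repressed. The CIP/KIP proteins p21 (Cdkn1a) and p27 (Cdkn1b) act on cyclin-CDK complexes more broadly, and p21 is a textbook target of p53. Cdkn2a also encodes p19ARF from a separate first exon and another reading frame, and p19ARF stabilises p53 by inhibiting MDM2. The Ink4a-Arf locus is a classical Polycomb target whose repression lets cells escape senescence. Of the proteins profiled, RING1B is the catalytic core of Polycomb repressive complex 1 (PRC1), which ubiquitylates histone H2A. SUZ12 is a core subunit of PRC2, which methylates lysine 27 of histone H3, and PCGF2 belongs mainly to canonical PRC1, which binds that methyl mark.

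The study profiled E14 mouse ESCs, grown in serum and leukemia inhibitory factor, by calibrated ChIP-seq in 118 samples of 42 groups. The samples behind the lists used here had human HEK293T cells, an embryonic kidney line, as spike-in. PRC1CPM cells (clone 41) combine a constitutive Ring1aI50A/D53K mutation with the switchable allele Ring1b(WT->I53A/D56K)fl/fl and a tamoxifen-activated recombinase expressed from the ubiquitous Rosa26 locus (Rosa26::ERT2-Cre), and gave 3 untreated samples each for RING1B, SUZ12 and PCGF2. PRC1CKO cells (clone B9) are Ring1a-/- with Ring1bfl/fl and the same recombinase, and gave 3 untreated samples for SUZ12. Both lines are thus single clones without active RING1A, and in both the wild-type RING1B protein is made until tamoxifen is added. The data analysed were 3 peak lists, with 18643 RING1B, 7438 SUZ12 and 3680 PCGF2 peaks. Each list merges or intersects samples into positions without heights, so they allow no replicate error, depth or test for any value below. Treated cells were not analysed here, and the identity of the cells rests on the labels, as peak positions hold no RNA level.

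To show the DNA under these peaks, 5 promoter sequences are given that bracket the range seen at these genes: both start sites of Cdkn2a, both of Cdkn1a, and that of Cdkn1b. Each is the 250 bases before a transcription start site (TSS), written in the direction of transcription, from RefSeq on GRCm38.p6 (the assembly mm10 is built on). Capitals mark CpG dinucleotides, which CpG island-binding proteins recognise when they are not methylated. The letters hold no methylation state.
Cdkn2a, Arf start, chr4:89294620-89294869, minus strand: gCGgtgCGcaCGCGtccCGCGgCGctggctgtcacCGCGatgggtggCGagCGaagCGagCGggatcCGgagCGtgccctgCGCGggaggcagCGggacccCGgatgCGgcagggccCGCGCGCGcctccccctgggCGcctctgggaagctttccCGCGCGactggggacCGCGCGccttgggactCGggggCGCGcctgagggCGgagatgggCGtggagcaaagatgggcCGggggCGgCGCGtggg
Cdkn2a, Ink4a start, chr4:89282193-89282442, minus strand: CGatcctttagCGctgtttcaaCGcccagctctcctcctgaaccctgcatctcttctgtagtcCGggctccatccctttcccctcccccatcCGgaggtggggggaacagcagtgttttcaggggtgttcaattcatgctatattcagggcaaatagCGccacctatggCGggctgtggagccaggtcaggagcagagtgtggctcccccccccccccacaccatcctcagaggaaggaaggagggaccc
Cdkn1b, chr6:134920151-134920400, plus strand: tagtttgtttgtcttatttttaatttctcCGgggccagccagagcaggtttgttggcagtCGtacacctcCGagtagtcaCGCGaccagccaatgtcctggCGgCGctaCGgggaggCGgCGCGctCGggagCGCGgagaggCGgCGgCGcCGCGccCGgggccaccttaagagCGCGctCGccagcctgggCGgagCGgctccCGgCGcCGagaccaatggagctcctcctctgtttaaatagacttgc
Cdkn1a, upstream start, chr17:29090729-29090978, plus strand: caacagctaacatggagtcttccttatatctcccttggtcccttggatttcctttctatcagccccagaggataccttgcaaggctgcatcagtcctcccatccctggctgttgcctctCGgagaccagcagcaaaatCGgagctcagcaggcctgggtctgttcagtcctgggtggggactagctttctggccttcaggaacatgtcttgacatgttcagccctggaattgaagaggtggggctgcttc
Cdkn1a, downstream start, chr17:29093519-29093768, plus strand: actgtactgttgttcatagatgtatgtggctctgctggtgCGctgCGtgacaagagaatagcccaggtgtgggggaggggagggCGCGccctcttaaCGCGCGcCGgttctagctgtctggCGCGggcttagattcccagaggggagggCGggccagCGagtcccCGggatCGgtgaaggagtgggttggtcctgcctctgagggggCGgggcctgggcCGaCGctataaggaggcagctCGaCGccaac

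The Arf promoter held 40 CpG in these 250 bases, more than 98.7% of 32851 RefSeq promoters, for which the median was 6. The Cdkn1b promoter held 28 and the downstream Cdkn1a promoter 19. In contrast, the Ink4a promoter held 7 and the upstream Cdkn1a promoter 2. Among the sequences not printed, the upstream Cdkn2c start had 29 CpG, Cdkn2d 16, Cdkn2b 12 and the downstream Cdkn2c start 6. Of the 5 sequences shown, the Arf, Ink4a, Cdkn1b and downstream Cdkn1a stretches lay wholly under RING1B, whereas the upstream Cdkn1a stretch lay under no peak of any list. Arf and Ink4a were also wholly under SUZ12 and PCGF2, and Cdkn1b under SUZ12.

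A set of 3 motifs was searched on both strands. An E2F site, TTTCCCGC, occurred in the Arf promoter, 99 to 92 bases before its start, and in no other member's promoter. It was found in 0.895% of all RefSeq promoters. An E-box, CACGTG, the site of MYC and of MGA with MAX, occurred in 0 of the 9 member promoters and in 6.02% of all. The p53 half-site, looked for after the sequences had been read, matched the upstream Cdkn1a promoter at 73 to 64 and at 51 to 42 bases before the start and the Cdkn2d promoter at 102 to 93 bases, against 7.13% of all promoters. The 3 motifs do not overlap each other in these promoters. The matches describe letters and not occupancy.

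To ask how often these genes carry Polycomb proteins at their promoters, peaks were intersected with windows of 2500 bp on each side of each curated TSS. RING1B was present at 6 of 6 genes, against 53.2% of all genes. SUZ12 was present at 5 of 6 (all but Cdkn2d), against 24.8% of all genes. PCGF2 marked 3 of 6, namely Cdkn2a, Cdkn2b and Cdkn2c, against 13.5%, and the same 3 of 6 had all 3 proteins, against 13.4%. Finally, 1 of 6, Cdkn2d, had RING1B without SUZ12, the state of 28.7% of all genes. Cdkn2a and Cdkn2b lie under the same peaks, so the 6 genes are 5 separate loci, and a few genes next to a genome-wide share give a description only.

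**Figure D1:**
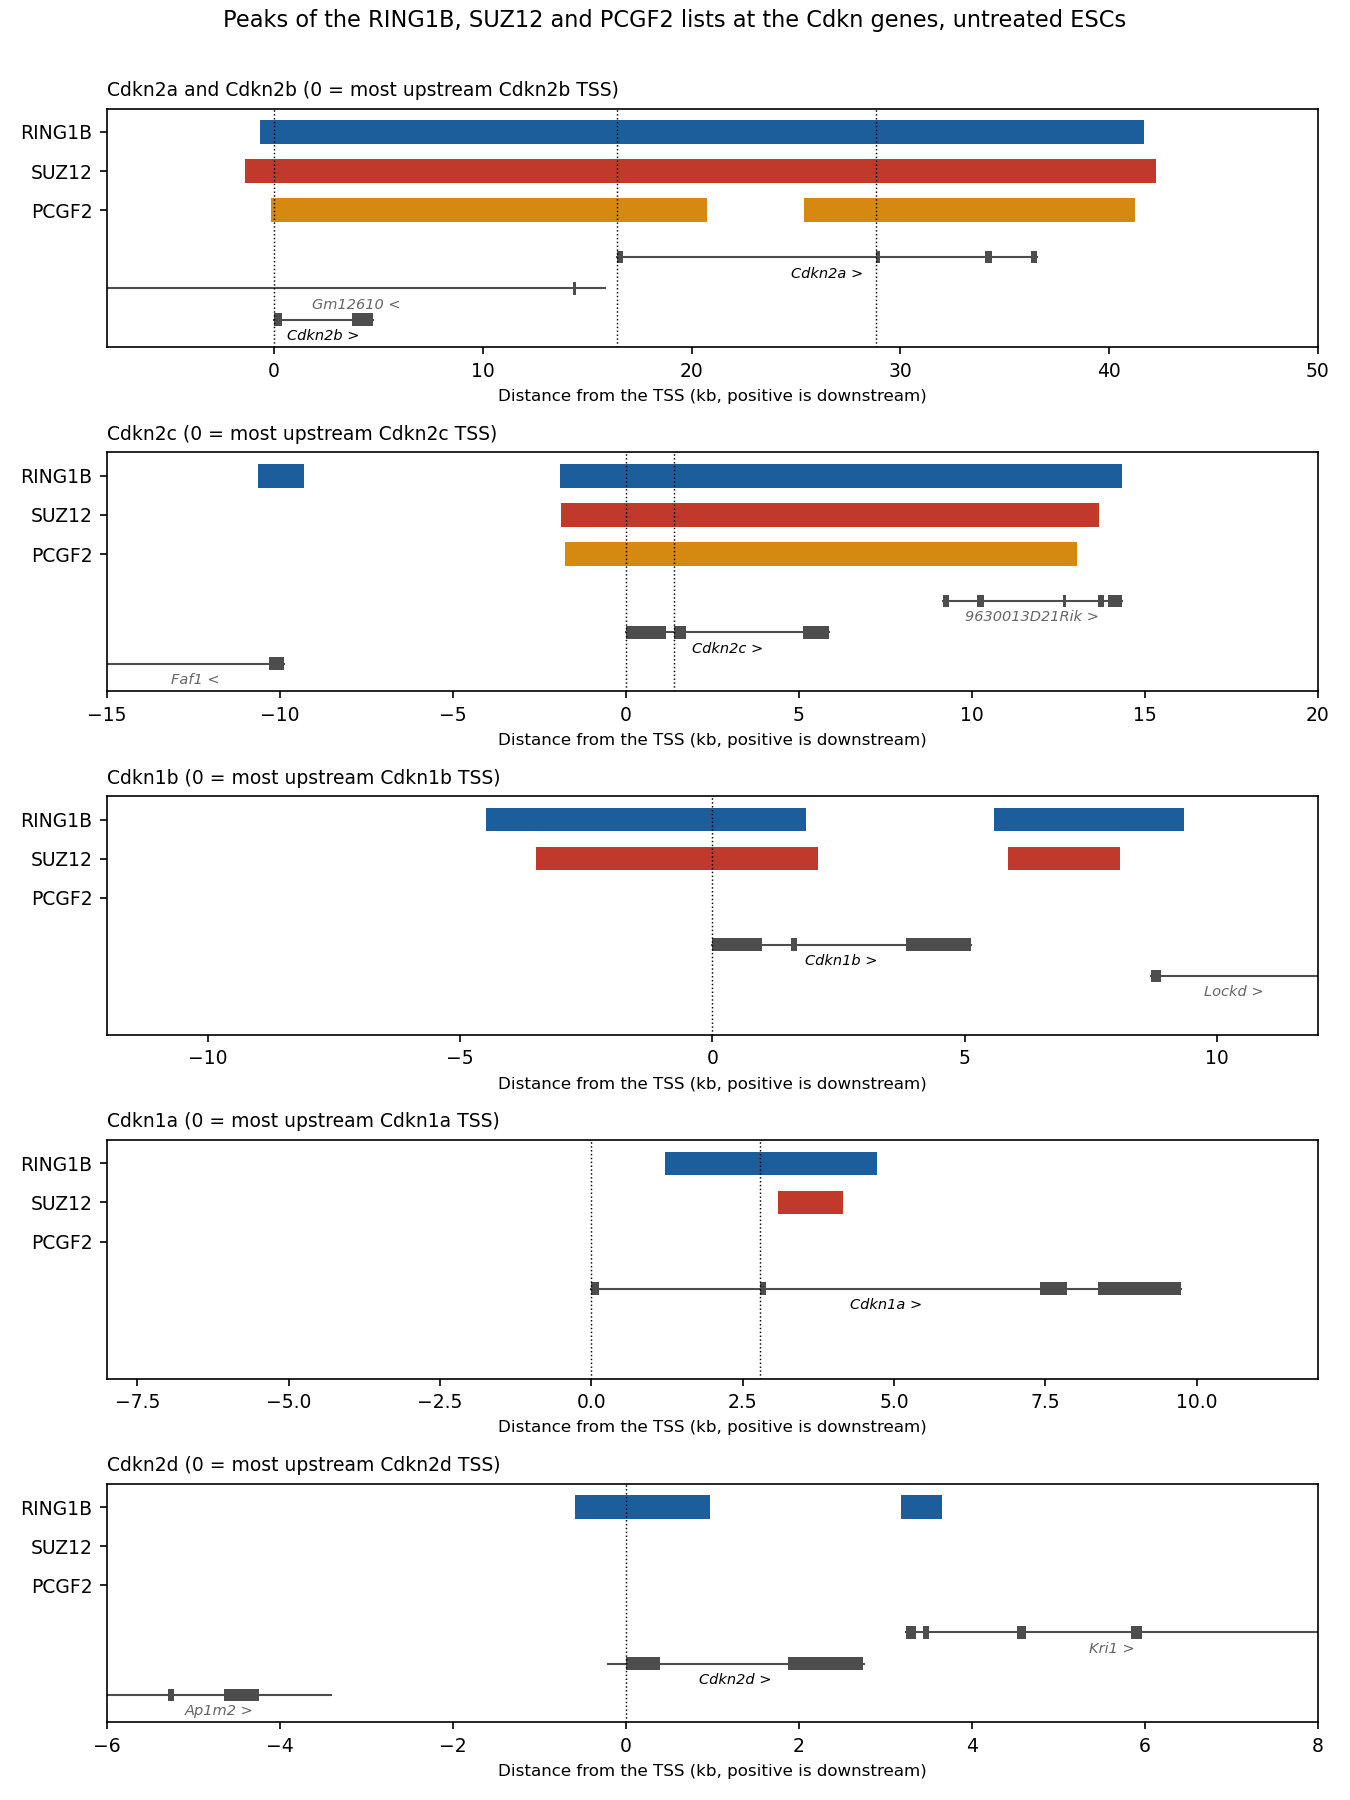
Peaks of the RING1B, SUZ12 and PCGF2 lists (coloured bars) and gene models (thick, exons; thin, gene span; > and <, same and opposite strand as the Cdkn gene) at the 5 loci, by distance in kb from the most upstream Cdkn TSS of each panel; dotted lines mark Cdkn start sites, and each panel has its own scale. The domain narrows from 42341 bp of RING1B over Cdkn2a and Cdkn2b to 1567 bp at Cdkn2d, and PCGF2 is listed at the upper 2 loci.

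The largest domain covered the Ink4a-Arf-Ink4b locus. A single RING1B peak, chr4:89269341-89311681, spanned Cdkn2a (89274473 to 89294619) and Cdkn2b (89306289 to 89311032), both transcribed on the minus strand. At 42341 bp it ranked 12 of 18643 in width. It began 649 bp before the Cdkn2b TSS and ended 5132 bp past the 3′ end of Cdkn2a, so every exon of both genes, with both alternative first exons of Cdkn2a, lay inside it. The nearest other RING1B peak was 130.9 kb away. SUZ12 formed a matching single peak, chr4:89268767-89312435, of 43669 bp (rank 7 of 7438) that reached 754 bp further upstream and 574 bp further downstream than RING1B.

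The edge upstream of Cdkn2b lies close to unsequenced stretches of the assembly, where no read can map. A gap of 100 bp begins 536 bp past the RING1B end and sits inside the SUZ12 peak, and a gap recorded as 30000 bp begins 5119 bp past it. In all, 4 gaps lay within 50 kb of this peak, and 0 as close to the RING1B peaks at the other loci. The part of these gaps in where the domain ends was not tested.

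PCGF2 divided the domain into 2 peaks. The peak chr4:89290286-89311174, of 20889 bp, held the starts of Arf and Cdkn2b and both Cdkn2b exons. The other, chr4:89269772-89285639, of 15868 bp, held the start of Ink4a and the exons that both Cdkn2a transcripts share. Joining peaks across gaps of up to 5000 bp turned them into 1 peak of 41403 bp. Together they covered 86.8% of the RING1B peak, and their outer ends lay 507 bp and 431 bp inside the RING1B ends. Between them, 4646 bp (chr4:89285640-89290285) in the first intron of the Arf transcript had no PCGF2 peak while lying wholly inside the RING1B and SUZ12 peaks. This stretch starts 4334 bp downstream of the Arf TSS and ends 3448 bp upstream of the Ink4a TSS.

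CpG content differed along the domain. The stretch without PCGF2 had 36 CpG, or 7.75 per kb. The PCGF2 peak over Arf and Cdkn2b had 20.6 per kb and the peak over Ink4a 17.8 per kb. Within the peaks CpG was uneven, with 0 to 66 per 500 bp over Arf and Cdkn2b and 1 to 29 over Ink4a. Parts of both peaks thus held as few CpG as the stretch. Repeats made up 20.4% of the stretch, against 24.8% and 28.3% of the peaks, so its repeat content was the lower. Such interruptions were counted after this one was seen, over RING1B peaks of all widths. The share among peaks as wide as this one was not counted. Of 3568 RING1B peaks with PCGF2, 91 held 2 or more PCGF2 peaks, with 105 stretches between them, and in 94.3% of these the stretch had fewer CpG per kb than the peaks on either side. The Ink4a-Arf stretch was longer than the median of 2318 bp, and 15 of the 105 were at least as long. The part of CpG or repeat content in these interruptions was not tested.

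**Figure D2:**
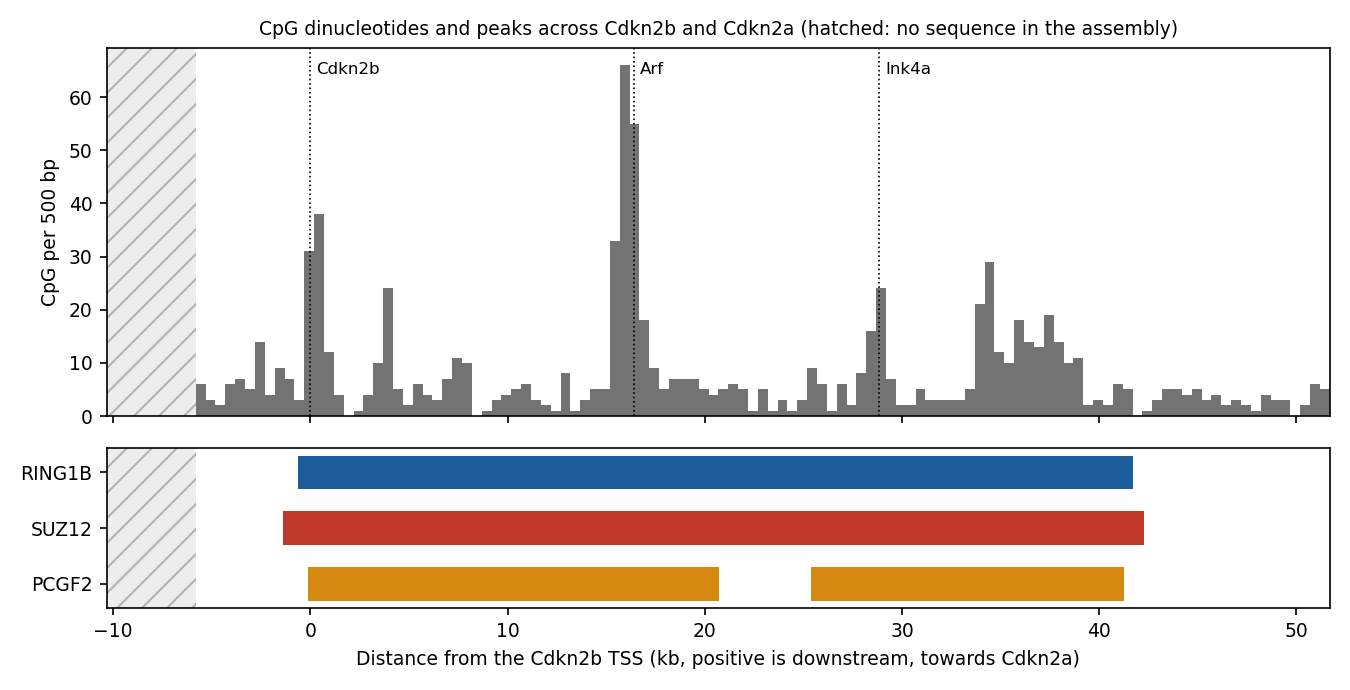
Number of CpG dinucleotides per 500 bp (upper panel) and peaks of the 3 lists (lower panel) by distance in kb from the Cdkn2b TSS. Positive values run towards Cdkn2a. Dotted lines mark the Cdkn2b, Arf and Ink4a start sites. Hatching marks the part in view of the assembly gap recorded as 30000 bp, and the 100 bp gap inside the SUZ12 peak is not hatched. The highest bin, with 66 CpG, lies just upstream of the Arf start. The stretch between the PCGF2 peaks holds few CpG, as do parts of both peaks.

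The start sites inside this domain were unlike each other in sequence. CpG observed/expected compares the number of CpG with that given by the C and G content, and was measured over the TSS plus or minus 500 bp. Values over all genes use only the most upstream curated TSS of each gene, whereas Ink4a is a downstream start. The ratio was 0.971 at Arf, above 97.0% of genes, 0.742 at Cdkn2b and 0.537 at Ink4a, close to the median of 0.512 over all genes. The windows of 5001 bp around Arf and around Ink4a were nevertheless both filled to 100% by RING1B, SUZ12 and PCGF2. At Cdkn2b the domain ended inside the window, and RING1B filled 63.0%, SUZ12 78.1% and PCGF2 52.8% of it. The noncoding gene Gm12610 starts 561 bp from Arf on the opposite strand, inside the same peaks. Beyond the domain, the TSS of Mtap, which encodes an enzyme of methionine salvage, lies 132.0 kb from it and had RING1B (1748 bp) with SUZ12, while Dmrta1, 377.2 kb from Cdkn2b, had RING1B of 3380 bp together with SUZ12 and PCGF2.

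Cdkn2c had the second largest domain of the 5 loci. RING1B covered chr4:109652412-109668656 (16245 bp, rank 161), SUZ12 covered 109653085 to 109668646 (15562 bp, rank 186 of 7438), and PCGF2 covered 109653728 to 109668519 (14792 bp, rank 130 of 3680). The upstream edges of the lists fell within 137 bp of each other, 1900 bp before the upstream TSS for RING1B. The downstream edges were staggered, with SUZ12 ending 673 bp and PCGF2 1316 bp short of RING1B. The whole gene (109660876 to 109666756, minus strand) was inside all 3 peaks, which ran on past its 3′ end, for 8464 bp in the case of RING1B, and took in the start of the noncoding gene 9630013D21Rik. Of the 2 Cdkn2c start sites, 1384 bp apart, the upstream had CpG observed/expected of 0.799 and the downstream 0.623. On the other side, Faf1, whose product binds the death receptor FAS, had a separate RING1B peak of 1321 bp and neither SUZ12 nor PCGF2.

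The remaining INK4 gene, Cdkn2d, differed from its paralogues. Its RING1B peak, chr9:21290231-21291797, was 1567 bp wide (rank 8859 of 18643), reaching 588 bp before and 978 bp past the TSS at 21291209. It contained exon 1 but no base of exon 2. No SUZ12 or PCGF2 peak touched the promoter or the gene (21288459 to 21291421, minus strand, predicted transcripts included). CpG observed/expected at the TSS was 0.658, inside the quartiles of 0.592 to 0.850 for the 7498 genes with RING1B alone. The next RING1B peak, 2201 bp away, lay at the start of the neighbouring gene Kri1, and joining peaks across gaps of up to 5000 bp merged the pair into 4249 bp. On the other side, Ap1m2, which encodes a subunit of a clathrin adaptor and starts 20.9 kb away, had RING1B (1705 bp) and SUZ12 (1018 bp). A missing peak says that the callers listed none and not that the protein is absent.

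Of Cdkn1a and Cdkn1b, the CIP/KIP members examined here, Cdkn1b had the wider peaks. RING1B covered chr6:134915912-134922264 (6353 bp, rank 1046), of which 4489 bp lay before the TSS at 134920401 and 1863 bp after it. SUZ12 covered 134916897 to 134922502 (5606 bp, rank 1485 of 7438), shorter by 985 bp upstream and longer by 238 bp downstream. Exons 1 and 2 were inside both peaks and exon 3 inside neither, so 36.4% of the gene (134920401 to 134925525, plus strand) was under RING1B and 41.0% under SUZ12. No PCGF2 peak was listed. CpG observed/expected at the TSS was 0.905, above the upper quartile of 0.843 for genes with RING1B and SUZ12. It was also above that of 0.827 for genes with all 3 proteins and of 0.850 for genes with RING1B alone. A second RING1B peak, 3709 bp further on, covered the start of the noncoding gene Lockd with 3771 bp. A SUZ12 peak of 2234 bp lay inside that RING1B peak but ended before the Lockd TSS. Joining peaks across gaps of up to 5000 bp merged these neighbours and gave widths of 13833 bp for RING1B and 11590 bp for SUZ12. On the other side, the receptor gene Gpr19, whose start lies 22.2 kb away, had a RING1B peak of 1888 bp alone.

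At Cdkn1a the peaks lay nearer to the downstream of 2 start sites, which lie 2790 bp apart. RING1B covered chr17:29092204-29095694 (3491 bp, rank 3128). It began 1225 bp past the upstream TSS at 29090979 and contained the downstream TSS at 29093769 with its first exon. SUZ12 covered chr17:29094064-29095139, a peak of 1076 bp (rank 6045 of 7438) that began 295 bp past the downstream TSS and overlapped no exon, being wholly intronic. It was the narrowest of the SUZ12 peaks at these genes, had no repeat bases and a CpG observed/expected of 0.750, and the next SUZ12 peak was 140.2 kb away. Exons 2 and 3, common to both transcripts, were outside every peak, and 35.8% of the gene (29090979 to 29100722, plus strand) was under RING1B and 11.0% under SUZ12. The upstream start, whose promoter holds the p53 half-sites, had a CpG observed/expected of 0.126, against 0.622 at the downstream start. The neighbouring noncoding gene Trp53cor1 had RING1B alone, and Rab44, a GTPase gene, had no peak.

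**Figure D3:**
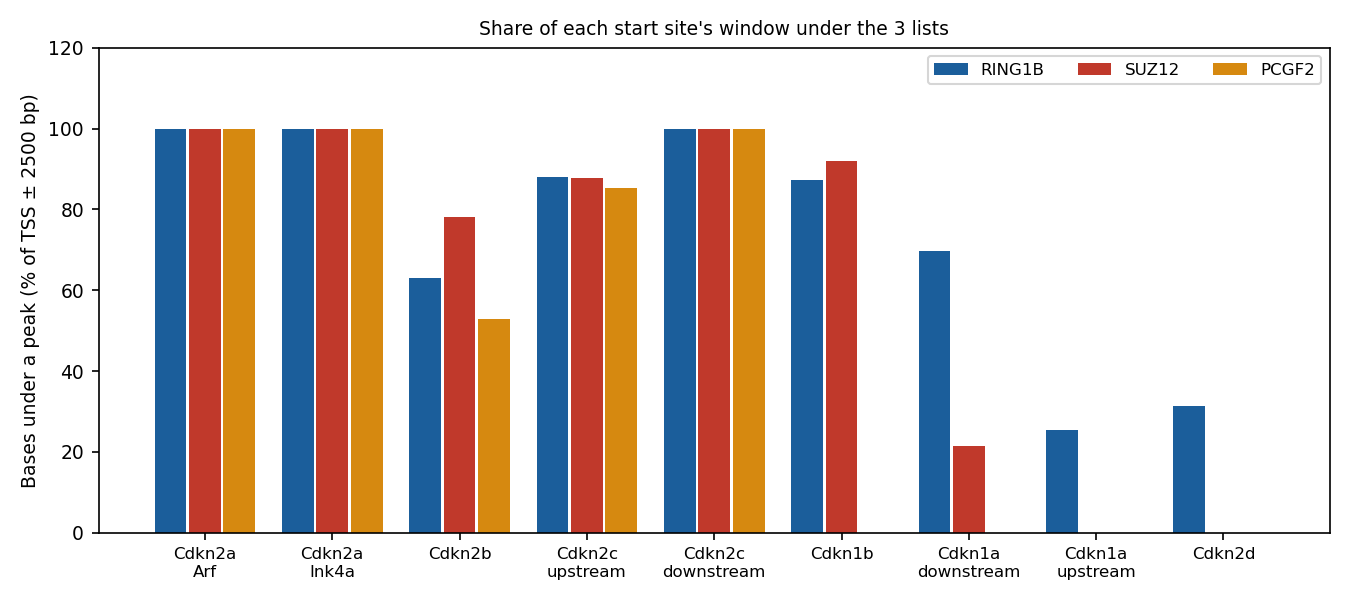
Percentage of the 5001 bp window around each of the 9 curated start sites that lies under a RING1B, SUZ12 or PCGF2 peak (bars, one value each, no error available). The Arf, Ink4a and downstream Cdkn2c windows reach 100% for all 3 lists, while the upstream Cdkn1a window reaches 25.5% for RING1B and 0 for the others.

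Ordered by the widest RING1B peak at a promoter, the genes ran from Cdkn2a and Cdkn2b, wider than 99.4% of the 13922 genes with a RING1B promoter peak, through Cdkn2c (97.7%), Cdkn1b (90.3%) and Cdkn1a (76.1%) to Cdkn2d (42.8%). The median over these genes was 1810 bp, so Cdkn2d alone lay below it. SUZ12 widths followed the same order for the 5 genes that had them, and at Cdkn1a the SUZ12 peak was wider than that of 15.0% of the 6487 genes with SUZ12. The lists follow different calling rules, so widths are ranked within a list, and without replicates the spread of neighbours in this order is unknown.

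**Figure D4:**
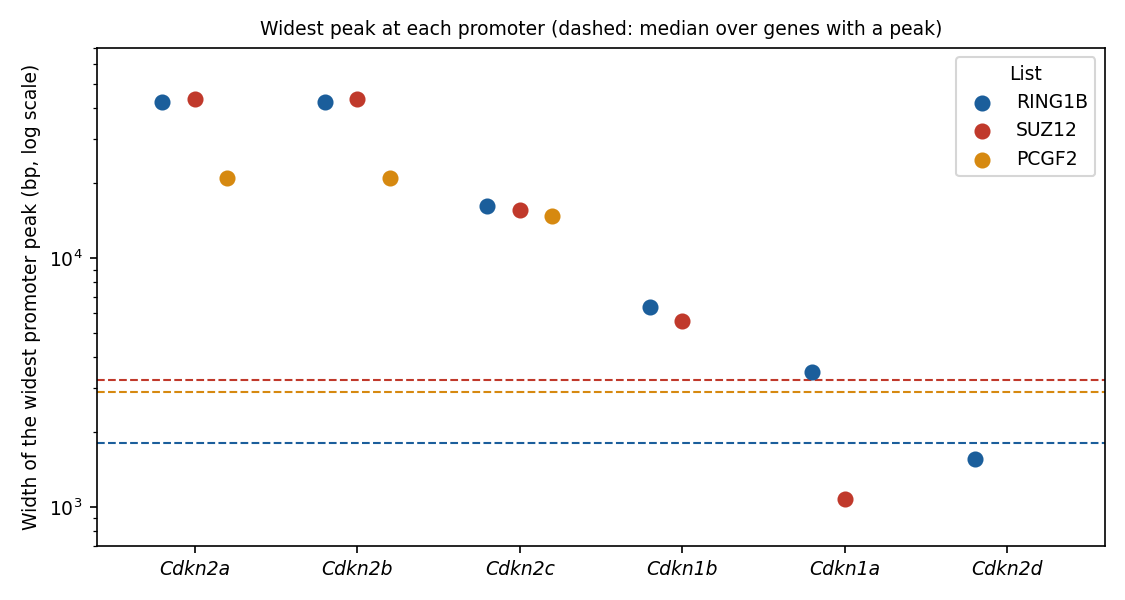
Width in bp, on a log scale, of the widest RING1B, SUZ12 and PCGF2 peak at a promoter of each gene (points, one list value each), with dashed lines for the median over all genes with a peak in that list. The RING1B values fall from 42341 bp to 1567 bp against a median of 1810 bp, and the SUZ12 value of Cdkn1a, 1076 bp, lies below the SUZ12 median of 3232 bp.

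Peaks covered the genes themselves to different degrees. Cdkn2a, Cdkn2b and Cdkn2c were wholly under RING1B and wholly under SUZ12, and PCGF2 covered 76.9% of Cdkn2a and 100% of the other two. Among genes with a body of at least 4 kb, a comparison chosen after these values were seen, 3 of 5 members and 1.09% of 19833 genes were wholly inside a single RING1B peak. The comparison had no upper limit of length and was not matched for it, and the 5 members had bodies of 4744 to 20147 bp. The shortest gene, Cdkn2d, is below 4 kb, and Cdkn2a and Cdkn2b share their peak.

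**Figure D5:**
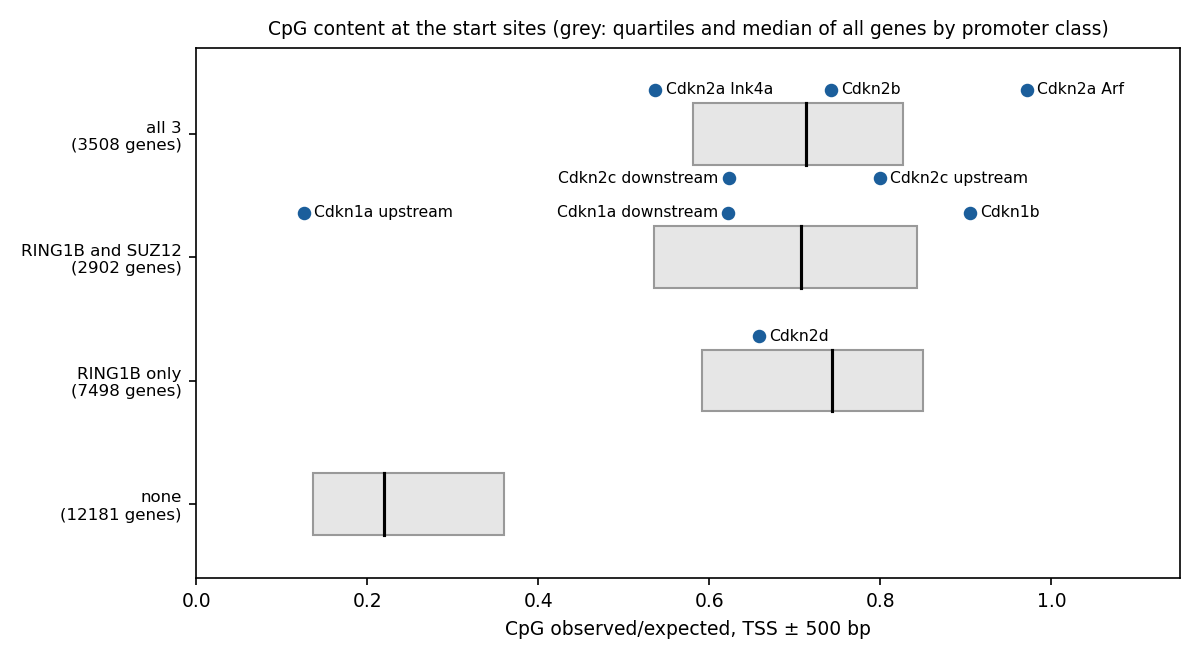
CpG observed/expected (TSS plus or minus 500 bp) at the 9 start sites (blue points, placed by the promoter class of their gene) against the quartiles (grey boxes) and medians (black lines) of all genes in each class. The boxes and medians use only the most upstream curated TSS of each gene. The upstream Cdkn1a start, at 0.126, lies below the median of 0.220 for genes without any peak, and the other 8 start sites lie at 0.537 or above.

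CpG content at the start sites was set beside the promoter classes, and its part in them was not tested. Median CpG observed/expected was 0.743 for genes with RING1B alone, 0.707 for RING1B with SUZ12, 0.713 for all 3 proteins and 0.220 for genes with none. Among the members, the widest domain held the Arf (0.971), Cdkn2b (0.742) and Ink4a (0.537) starts. The Cdkn1b start (0.905) had no PCGF2. Measured over 2500 bp on each side, the ratio ranged from 0.196 at the upstream Cdkn1a start to 0.674 at the downstream Cdkn2c start. Over whole peaks, the ratio was lower in the wide domains, at 0.377 for the Cdkn2a and Cdkn2b RING1B peak and 0.461 for that of Cdkn2c, than in those of Cdkn1b (0.536), Cdkn2d (0.622) and Cdkn1a (0.658). These peaks differ in length, from 42341 bp to 1567 bp, and the ratios were not matched for it.

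To place the inhibitors beside the machinery they act on, a list of 33 other cell cycle genes was examined. RING1B was present at 31 of the 33, SUZ12 at 14 and all 3 proteins at 8, against 53.2%, 24.8% and 13.4% of all genes. The 8 were the inhibitor Cdkn1c (p57), the kinase Cdk6, the cyclins Ccna1, Ccnd1 and Ccnd2, the tumour suppressor Rb1 and the E2F factors E2f6 and E2f8, which repress. A further 6, Cdk4, Ccne2, E2f2, E2f5, E2f7 and the E2F partner Tfdp1, had RING1B and SUZ12 without PCGF2, 17 had RING1B alone, and Cdk1 and Ccnb2 had no peak. The INK4 targets Cdk4 and Cdk6 thus both had RING1B and SUZ12. Of the D-type cyclins that activate them, Ccnd1 and Ccnd2 had both proteins and Ccnd3 had RING1B alone.

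Likeness was measured as the summed difference, over the 3 lists, in base pairs of the most upstream TSS window under a peak. Of the 33 genes, Ccnd2 and Cdkn1c were most like Cdkn2a, with a difference of 0 bp because all their windows were filled. Rb1 was nearest to Cdkn2b (1173 bp), and Ccnd1 was nearest to Cdkn2c (1712 bp). For Cdkn1b the smallest differences were those of Ccnd1 (3972 bp), which has 3349 bp of PCGF2 where Cdkn1b has 0, and of E2f2 (4271 bp) and E2f7 (4323 bp), which like Cdkn1b lack PCGF2. Cdkn3 was nearest to Cdkn1a (9 bp), for which this measure uses the upstream start site and so sees no SUZ12. Finally, Ccnd3 was nearest to Cdkn2d (52 bp). At Cdkn1c, the third CIP/KIP gene, the RING1B peak was 14524 bp wide and the SUZ12 peak 13659 bp, both wider than at Cdkn1a and Cdkn1b, and a PCGF2 peak of 8474 bp was present.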

How the data were processed

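Calibrated ChIP-seq peaks of RING1B, SUZ12 and PCGF2 in untreated ESCs were analysed. Each deposited value is a peak's first or last position (mm10), with no signal, p-value, replicate or depth. The read numbers the study gives per sample were not used here. The authors aligned reads with Bowtie 2 to mm10 joined with hg19, kept unique reads, used Sambamba against duplicates and MACS2 in broad mode with Input as control, and dropped blacklisted regions. RING1B and SUZ12 peaks were called on merged replicates and kept if found in both lines, and RING1B peaks also had to lose signal in tamoxifen-treated PRC1CKO cells, using RING1B data not analysed here. PCGF2 peaks had to occur in every untreated PRC1CPM replicate. These rules affect widths and absences.

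Coordinates are counted from base 1. Promoters were curated RefSeq TSSs (GRCm38.p6) plus or minus 2500 bp, and 1 shared base pair counted as overlap. Sequence content was read from this C57BL/6J-derived assembly, whereas the cells are E14. The 6 genes, the cell cycle list and the comparisons were chosen with earlier results of these data known. The named genes were the 6 members, their nearest neighbours on each side, genes starting inside their peaks, list genes with SUZ12, and the 3 most alike list genes, of which the nearest are given (3 for Cdkn1b). Cdk1 and Ccnb2 were named after their values were seen. Overlap code was tested on simulated data, where 0 of 14400 searches differed from a brute-force search. Python 3.11.15, NumPy 2.4.6, SciPy 1.17.1 and matplotlib 3.10.9 were used. No test was made, and 11 alternative settings of promoters and peaks were tried.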

Additional observations from a re-analysis of the deposited data

How the results depend on the processing

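The counts of members with RING1B, with SUZ12, with PCGF2 and with all 3 proteins stayed within 1.5 times under all 11 settings: promoter windows of 500, 1000 or 5000 bp, the TSS base alone, an overlap of 500 bp, peaks of at least 1 kb, merged peaks, other transcript sets, the most upstream TSS and the gene body. RING1B stayed at 6 and PCGF2 at 3 in each. The count with RING1B but no SUZ12 rose from 1 to 2 when the TSS base had to lie inside a peak. It was again 2 with the most upstream TSS. The SUZ12 peak of Cdkn1a begins past its downstream TSS and lies wholly outside the window of its upstream TSS. SUZ12 fell from 5 to 4 in both settings. Merging peaks across gaps of up to 5000 bp joined the PCGF2 peaks over Cdkn2a and Cdkn2b into 41403 bp, and widened Cdkn1b to 13833 bp for RING1B and 11590 bp for SUZ12, and RING1B at Cdkn2d to 4249 bp. Over 2500 bp on each side, the CpG ratio moved by over 1.5 times at 5 start sites, to 0.314 at Ink4a, 0.389 at Cdkn2d, 0.477 at Cdkn2b, 0.580 at Cdkn1b and 0.196 at the upstream Cdkn1a start. The shares of all genes ranged from 41.7% to 58.4% for RING1B, 18.9% to 27.2% for SUZ12 and 10.8% to 14.5% for PCGF2.

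No paired analysis was possible because each list is a single set of positions, which also leaves no replicate to omit. With positions alone, there is no measure of binding strength or of its error, and a missing peak is no proof of missing binding. Calling rules differ between the lists, and the reference is another strain than the cells. Values in treated cells were not analysed here.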
